A study of Mus musculus with 4 samples.

Results

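The cells described here are the myeloid cells of MC38 tumors that held much Cxcl9 or Nos2 RNA and little or no C1q RNA. This state was labelled Cxcl9+ Nos2+ inflammatory monocytes. They were chosen by raw counts of unique molecular identifiers (UMIs, which stand for captured RNA molecules): Cxcl9 plus Nos2 of at least 10, C1qa plus C1qb plus C1qc of at most 2, S100a8 plus S100a9 below 10, Ncr1 plus Klrb1c plus Gzma plus Prf1 below 5, Cd209a below 2, Ccr7 plus Fscn1 plus Cacnb3 below 4, and Arg1 below 10. By this rule 566 of 25333 kept cells were members, 198 of 10193 in the WT library and 368 of 15140 in the VISTA KO library. The label did not hold for Nos2: 83.3% of WT members and 79.3% of VISTA KO members had no Nos2 UMI, so the cells are called Cxcl9-high monocytes below. The values of the genes in the rule chose the cells and are given as a description only.

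Cxcl9 is a chemokine that calls CXCR3-bearing T cells and NK cells into tissue, and myeloid cells make it when they meet interferon-gamma. The same signal induces guanylate-binding proteins, MHC class II and, together with NF-kappaB signals from microbial or inflammatory receptors, the enzyme inducible nitric oxide synthase, which Nos2 encodes. In mouse tumors, monocytes that enter from blood carry Ly6C and can take on such an interferon-activated state, an arginase-rich suppressive state or the features of macrophages.

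Bone marrow from WT or from VISTA KO donors, strain C57/BL6, was used to make chimeric mice, which were left 6 weeks to reconstitute and then given MC38 tumors, a mouse colon carcinoma line. VISTA, encoded by Vsir, is an immune checkpoint protein found on myeloid and T cells. Tumors of 9 to 10 mm were pooled before digestion, staining for CD45.1 against CD45.2 separated cells of WT and VISTA KO origin, and viable CD11b+ cells were sorted, of which 10000 were loaded per library. Each genotype has 1 library from pooled tumors, so nothing measures the spread between mice, no test was possible, and every interval below covers counting error only; the genotype and any other difference between the donors or libraries cannot be told apart. All mice of both groups had donor marrow, and the labels used here give neither ages nor the part of Vsir that was deleted.

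The libraries held 10241 and 15257 barcodes, more than the cells loaded, and the kept cells had medians of 4692 and 4212.5 UMIs. Median depth of the members was 4576 UMIs (WT) and 4123 UMIs (VISTA KO), and their RNA summed to 1005632 (WT) and 1738688 (VISTA KO) UMIs. The libraries shared 47 barcodes, and 0 members carried one of them. Levels below are UMIs per 1000000 summed gene UMIs of a class (CPM). Vsir stood at 70.6 CPM in WT members and 15.5 CPM in VISTA KO members, with a UMI in 26.3% and 6.52% of them, so it was low but not at 0 under the VISTA KO label, and a 3' tag outside the deleted part would not check the deletion.

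Cxcl9 carried the cut almost alone. Members held a median of 18 Cxcl9 UMIs in WT, with a highest value of 74, and a median of 17 in VISTA KO, with a highest value of 105. Nos2 gave 2.50% of the Cxcl9 plus Nos2 UMIs of WT members and 1.98% of those of VISTA KO members. At least 10 Nos2 UMIs were present in 2 WT members and 1 VISTA KO member. Members with at least 10 Cxcl9 and fewer than 3 Nos2 UMIs numbered 183 and 342, while 1 WT cell and 0 VISTA KO cells had at least 10 Nos2 and fewer than 3 Cxcl9 UMIs. A comparison of Cxcl9-led with Nos2-led members therefore could not be made. The scatter of Cxcl9 against Nos2 counts shows how close most members lie to the Cxcl9 axis.

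**Figure D1:**
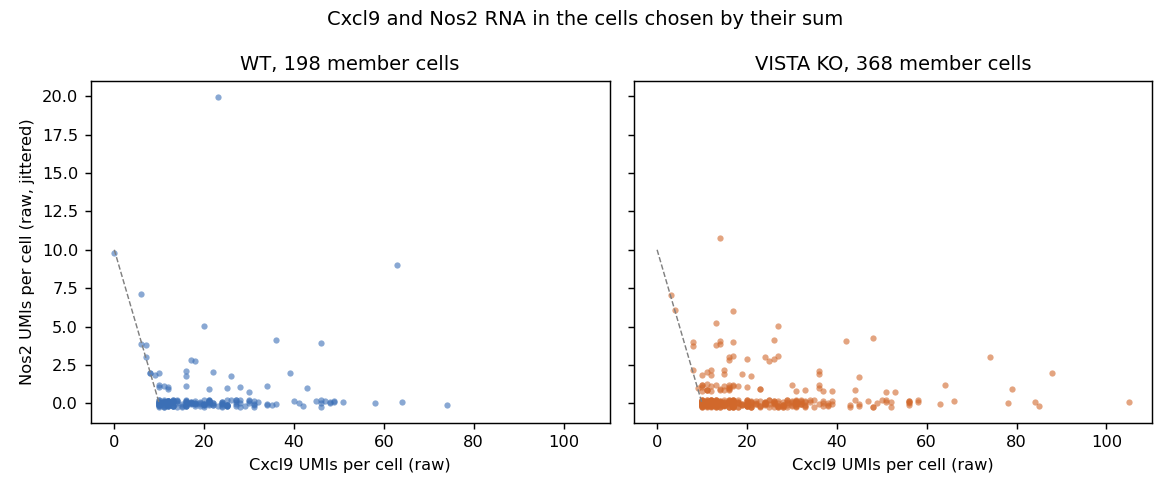
Nos2 UMIs per cell (y axis, with vertical jitter) against Cxcl9 UMIs per cell (x axis) for each of the 198 WT and 368 VISTA KO members; the dashed line marks a sum of 10, the lower limit of the rule. Points lie along the x axis, with 165 WT and 292 VISTA KO members at 0 Nos2 UMIs.

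The cut falls on a continuous range of counts. In WT, 56 members had 10 to 12 Cxcl9 plus Nos2 UMIs and 75 cells that passed all other limits had 7 to 9. In VISTA KO these groups held 92 and 125 cells. Some genes had like levels on both sides of the cut and others did not. In WT, Cxcl10 stood at 2979 CPM just inside and 3147 CPM just outside, and in VISTA KO at 3743 and 3565 CPM. Ly6i stood at 591 and 520 CPM in WT and at 647 and 668 CPM in VISTA KO. Gpr84 was higher inside, at 84.5 against 39.8 CPM in WT and 70.0 against 49.0 CPM in VISTA KO. In WT, Ccl5 stood at 856 CPM inside and 1144 CPM outside, and Chil3 at 639 and 893 CPM. In VISTA KO, Ccl5 went the other way, at 3118 and 2784 CPM, and Chil3 stood at 515 and 543 CPM.

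The 300 bases around the start sites of 4 genes are shown: Cxcl9, which defines the cells, Gpr84 and Ccl17, which stood far above classical monocytes, and Cxcl10, the other CXCR3 ligand with much RNA. They are RefSeq promoter sequences, build GRCm38.p6, from 250 bases before to 50 after the start, read in the direction of the gene. Capitals mark matches, on either strand, to an interferon-stimulated response element (ISRE: TTTC, any pair of bases, TTTC, or the complement GAAA, any pair, GAAA), a gamma-activated site (GAS, TTCNNNGAA) or a kappaB site (GGG, any pair of bases, TTTCC, or the complement GGAAA, any pair, CCC). Cxcl9 lies on the minus strand at chr5:92328030-92328329, Cxcl10 on the minus strand at chr5:92348840-92349139, Gpr84 on the minus strand at chr15:103310389-103310688 and Ccl17 on the plus strand at chr8:94810203-94810502.
Cxcl9: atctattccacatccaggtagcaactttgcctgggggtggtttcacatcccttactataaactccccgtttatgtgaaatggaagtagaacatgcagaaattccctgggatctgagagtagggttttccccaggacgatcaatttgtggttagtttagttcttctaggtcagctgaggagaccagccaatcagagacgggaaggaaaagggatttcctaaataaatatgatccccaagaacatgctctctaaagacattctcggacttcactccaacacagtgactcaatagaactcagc
Cxcl10: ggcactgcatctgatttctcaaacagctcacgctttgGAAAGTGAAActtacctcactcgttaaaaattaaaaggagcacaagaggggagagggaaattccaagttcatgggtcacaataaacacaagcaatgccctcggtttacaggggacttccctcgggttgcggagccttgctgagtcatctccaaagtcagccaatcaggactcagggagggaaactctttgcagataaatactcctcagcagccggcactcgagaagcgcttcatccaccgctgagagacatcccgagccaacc
Gpr84: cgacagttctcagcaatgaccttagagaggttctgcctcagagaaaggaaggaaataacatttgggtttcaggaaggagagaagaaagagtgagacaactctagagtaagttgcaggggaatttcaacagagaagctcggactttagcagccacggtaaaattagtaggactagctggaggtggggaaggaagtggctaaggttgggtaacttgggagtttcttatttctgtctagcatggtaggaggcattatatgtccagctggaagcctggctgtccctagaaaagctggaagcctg
Ccl17: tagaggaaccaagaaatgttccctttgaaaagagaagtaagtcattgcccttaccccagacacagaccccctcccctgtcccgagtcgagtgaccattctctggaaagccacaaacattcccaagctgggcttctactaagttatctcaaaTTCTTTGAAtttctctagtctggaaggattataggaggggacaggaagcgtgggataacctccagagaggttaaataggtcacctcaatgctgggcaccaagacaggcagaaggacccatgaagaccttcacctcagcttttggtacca
Cxcl10 held 1 ISRE, at 213 to 204 bases before the start, and Ccl17 held 1 GAS, at 99 to 91 bases before it. The windows of Cxcl9 and Gpr84 held no match to these letters. Of the 32851 promoter windows in the table, 3.44% held the ISRE, 8.30% the GAS and 1.63% the kappaB letters, and no matches printed here overlapped. Of other genes described below, Gbp2 held 1 ISRE, Serpina3g held 1 kappaB site and 1 GAS, and H2-Aa held none. A match is a match of letters and shows no binding.

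Members made up 1.94% of kept WT cells, with an exact binomial (Clopper-Pearson) interval of 1.68% to 2.23%, and 2.43% of kept VISTA KO cells, with an interval of 2.19% to 2.69%. The VISTA KO share was 0.488 percentage points above the WT share (interval 0.118 to 0.847). The direction turned with the limit on C1q: among cells with no C1q UMI at all, the rule left 123 WT and 95 VISTA KO cells, and the VISTA KO share was 0.579 points below the WT share. It also turned with the denominator. Of the cells that passed every other limit, 5.18% of WT and 7.78% of VISTA KO cells were members, a difference of 2.60 points (1.55 to 3.63). Of the 731 WT and 1966 VISTA KO cells with at least 10 Cxcl9 plus Nos2 UMIs, 27.1% and 18.7% were members, since the limit on C1q removed 432 and 1452 of them. Of all Cxcl9 UMIs in kept cells, members held 19.9% in WT and 13.8% in VISTA KO. Of all Nos2 UMIs they held 4.06% and 4.09%.

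Monocyte genes were present, some near their classical monocyte levels and some below them. Beside classical monocytes, 0 of 20 genes of their list were higher in both libraries and 4 lower, by the 1.5-fold count given below. List medians were -0.36 and -0.29 (log2), beside -0.03 and -0.04 over all genes. F13a1 stood at 178 CPM in WT members and 137.5 CPM in VISTA KO members, against 334 and 272 CPM in classical monocytes. Ly6c2, which encodes the Ly6C antigen, stood at 3321 CPM in WT members and 3466 CPM in VISTA KO members, against 4017 and 4054 CPM in classical monocytes (2492 and 2221 cells within the other limits of the rule, with at most 2 Cxcl9 plus Nos2 UMIs and at least 10 UMIs of Chil3, Vcan and Plac8). Plac8, a gene of blood monocytes, stood at 8734 and 7185 CPM, against 8298 and 7551 CPM. Ccr2, the receptor that brings monocytes out of the marrow, stood at 679 and 835 CPM. The macrophage receptor Mertk had 4 and 7 UMIs in all members together and Folr2 0 and 2. Of the dendritic cell genes, Flt3 had 3 and 7 UMIs, Zbtb46 5 and 6, and Xcr1 1 and 1. The dendritic cell list as a whole nevertheless summed to 1108 and 779 CPM in members, above the 723 and 617 CPM of classical monocytes. Kmo, kynurenine 3-monooxygenase, stood at 35.8 against 15.7 CPM in WT and 11.5 against 9.32 CPM in VISTA KO, and Ccl17, Mgl2 and Itgax are given below.

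Markers of T cells, B cells, red cells and fibroblasts were scarce. The T cell list summed to 1.99 CPM in WT and 0 CPM in VISTA KO, with 8 and 10 of its 10 genes at 0. The B cell list summed to 4.97 and 4.03 CPM, with 6 of 7 genes at 0 in both. Red cell genes summed to 5.97 and 0.575 CPM and fibroblast and tumor genes to 1.99 and 26.5 CPM. Ncr1, Klrb1c and Prf1 of NK cells were held low by the rule. Of NK-associated genes outside the rule, some were near 0 in members and others were not. Nkg7 stood at 0 and 0.575 CPM, Eomes at 0.994 and 0 CPM and Klre1 at 5.97 and 2.30 CPM. Klrd1 stood at 169 and 48.3 CPM in members, against 40.2 and 31.9 CPM in classical monocytes. Klrk1 stood at 176 and 146 CPM, against 95.3 and 111 CPM. Klrd1 is given again below with the split by MHC class II. The part of these NK-associated genes in the other results was not tested. Ly6g, of neutrophils, had 2 and 0 UMIs, but it stood at only 17.1 and 54.4 CPM in neutrophil-type cells. The neutrophil list, which holds the rule genes S100a8 and S100a9, summed to 1070 and 1215 CPM in members. In classical monocytes it summed to 1159 and 1371 CPM. G0s2 of this list stood at 63.6 and 4.03 CPM in members, with 87.5% of its WT UMIs in the 5 highest cells. Of the other marker genes of the label, Gpr84, a receptor for medium-chain fatty acids, Ly6i, a Ly6 family gene, and Ccl5, a chemokine for T cells and monocytes, were above their classical monocyte levels in both libraries.

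The surface tags are antibodies joined to an oligonucleotide with a 15-base barcode, whose counts stand for protein on the cell. Their barcodes are printed from the deposited feature list because the protein readings rest on them.
CD11c: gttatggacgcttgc
Ly6G: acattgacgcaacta
Ly6C: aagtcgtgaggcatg
Members carried a median of 939 Ly6C tags in WT (quartiles 536.5 and 1738) and 973.5 in VISTA KO (518 and 1590). Classical monocytes carried 870 and 821, and NK-type cells, which lack most Ly6C, 189 and 177. Members were thus near classical monocytes for this protein in both libraries, and far from the NK-type level. Arg1-high monocytes (defined below) carried 1534 and 1142 Ly6C tags and macrophages with high Cxcl9 or Nos2 1716.5 and 1113.5. All kept cells carried 1083 and 1024. Members stood below these classes, so the Ly6C tag did not mark them as monocytes among the sorted cells. Ly6G medians were 5 and 4 tags in members, against 66 and 41.5 in neutrophil-type cells. CD11c medians were 9 and 9 tags in members, 5 and 5 in classical monocytes, and 18 and 26 in macrophages with high Cxcl9 or Nos2.

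Beside classical monocytes, 111 of 6550 genes (1.69%) were higher in members in both libraries and 102 (1.56%) were lower. A gene counted as higher or lower where the summed levels were at least 1.5-fold apart, with an interval leaving out equality, among genes with at least 100 UMIs. Gpr84 stood at 64.6 CPM in WT members and 13.3 in WT classical monocytes, and at 71.9 and 21.7 in VISTA KO. Ly6i stood at 457 against 168 CPM in WT and 797 against 316 CPM in VISTA KO. Ccl5 stood at 1513 against 374 CPM in WT and 3398 against 1266 CPM in VISTA KO. All 3 genes were thus higher in members in both libraries, as were Serpina3g (165 against 25.8 CPM and 180 against 44.7 CPM), a serine protease inhibitor, and Sod2 (853 against 252 CPM and 748 against 258 CPM), the mitochondrial superoxide dismutase. Anpep (CD13), Mgl2, Klrb1b, the GTPase Tgtp1, the survival gene Bcl2a1d, the uridine phosphorylase Upp1, Ralgds and Mllt6 completed the leading genes.

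The level plot sets members beside their neighbours. Nos2 stood at 105 CPM in WT members and 96.6 in VISTA KO members, against 9.54 and 10.9 in classical monocytes, a gap that the rule itself set. Arg1-high monocytes, which the rule kept out, had a Nos2 UMI in 23.8% of WT and 21.9% of VISTA KO cells, against 16.7% and 20.7% of members. NK-type cells, which are not a source of Nos2, had a Nos2 UMI in 0.756% of WT and 2.80% of VISTA KO cells, at median depths of 2262 and 2548 UMIs. After thinning each cell to 1000 UMIs, 7.07% of WT members and 8.22% of VISTA KO members had a Nos2 UMI, against 7.08% and 7.34% of Arg1-high monocytes and 0.386% and 0% of NK-type cells. Cells within the other limits, but with at least 10 Cxcl9 plus Nos2 and at least 10 Arg1 UMIs, numbered 37 and 89. After the same thinning 16.22% and 16.85% of them had a Nos2 UMI. In macrophages with high Cxcl9 or Nos2 the thinned shares were 5.68% and 8.5%. Nos2 is in the rule for members and limits each of these classes except the NK-type, so these shares are a description only.

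**Figure D2:**
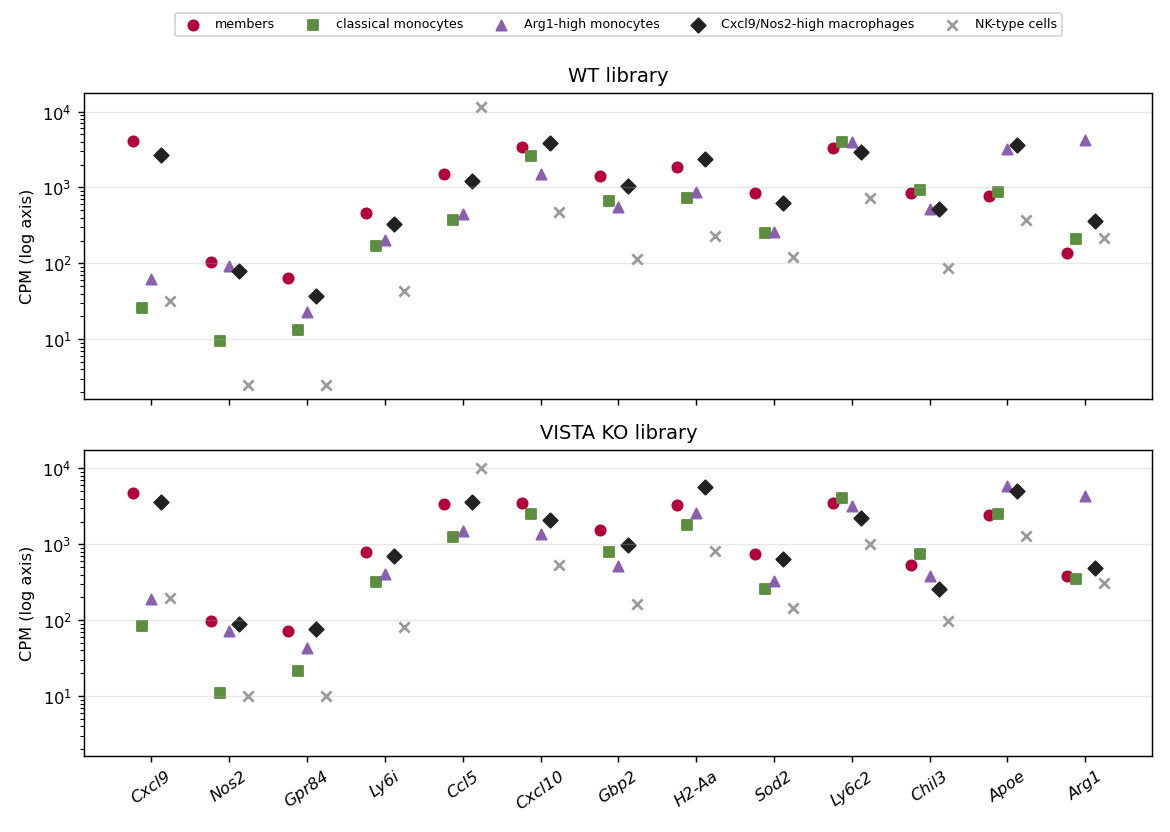
Summed levels in CPM (log axis) of 13 genes in members and 4 other classes of cells, WT library above and VISTA KO library below; a gene with no UMI in a class has no point. Cxcl9 stands at 4115 and 4787 CPM in members and at 25.9 and 84.1 CPM in classical monocytes, a gap that the rule made, while Ly6c2 lies close in both.

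Genes of the interferon-gamma response were partly higher. Of 15 measured interferon-gamma GTPases, 7 were higher than in classical monocytes in both libraries and 0 lower, with list medians of 0.52 and 0.62 (log2) beside medians of -0.03 and -0.04 over all genes. Gbp2, which attacks vacuoles that hold microbes, stood at 1431 against 668 CPM in WT and 1526 against 803 CPM in VISTA KO. Gbp5 and Iigp1 were among them. By the same count 0 of 19 type I interferon-stimulated genes were higher or lower, with medians of 0.13 and 0.13. Ifit and Isg genes thus stood near their classical monocyte levels. The difference between the lists was not tested.

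Of 26 NF-kappaB targets and feedback genes, 12 were higher and 0 lower, with medians of 0.64 and 0.70. Cd40, the receptor through which T cells activate myeloid cells, stood at 179 against 73.6 CPM in WT and 224 against 102 CPM in VISTA KO. Traf1, Icam1, Relb, Nfkbie, Marcksl1 and Bcl2a1b were among the others. Of 9 genes of the MHC class II list, 6 were higher, with medians of 1.33 and 0.77. H2-Aa stood at 1835 against 720 CPM in WT and 3264 against 1778 CPM in VISTA KO. Ciita, the transcriptional activator of these genes, stood at 79.5 against 32.3 CPM in WT and 107 against 68.9 CPM in VISTA KO.

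Of 7 chemokines for T cells, Cxcl16, Ccl5, Ccl17 and the rule gene Cxcl9 were higher and Ccl3 lower. Of 8 chemokines for monocytes and neutrophils, 0 were higher, while Ccl2, Ccl6 and Ccl7 were lower. Ccl2, the ligand of Ccr2, stood at 740 against 2158 CPM in WT and 821 against 1619 CPM in VISTA KO. Cxcl10, the other large CXCR3 ligand of the list, stood at 3462 against 2600 CPM in WT and 3464 against 2493 CPM in VISTA KO and missed the fold.

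Of the checkpoint and costimulation list, Cd274 (PD-L1), Cd40 and Slamf8 were higher and Vsir and Cd244a lower. Cd274 stood at 154 against 97.9 CPM in WT and 202 against 116 CPM in VISTA KO. Vsir stood at 70.6 against 134 CPM in WT. In the nitric oxide and arginine list, Nos2 and Ass1, which remakes arginine from citrulline, were higher, and Ass1 stood at 470 against 242 CPM in WT and 422 against 265 CPM in VISTA KO. Complement factor B (Cfb) and the Fc receptor Fcgr4 were also higher. The lowest genes beside classical monocytes were Gzmb, Atp2a3, Mcpt8, Ccdc88c, Tcp11l2, Pi16, Prtn3, Rgs18, Smarca2 and Gsr, of which Gsr, glutathione reductase, had the most RNA at 113 against 311 CPM in WT and 88.0 against 213 CPM in VISTA KO.

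Beside macrophages that also had at least 10 Cxcl9 plus Nos2 UMIs (88 WT and 434 VISTA KO cells with at least 10 C1q UMIs), 20 of 2227 genes (0.898%) were higher in members in both libraries and 31 (1.39%) lower. Of 17 NF-kappaB genes and 11 interferon-gamma GTPases, 0 were past the fold in either direction, which is near the share over all genes. Members held more Ifitm1 (1338 against 595 CPM in WT and 840 against 374 CPM in VISTA KO), Ifitm6, Klrd1, Pdk3, Ccnd3, Ifi205, Pkib and Cd69. They held less Pf4, Cd72, Ms4a7, Cd63 and Slamf9 beside the C1q genes that set the classes apart by rule. Ms4a7, a membrane gene of macrophages, stood at 41.8 against 316 CPM in WT and 129 against 444 CPM in VISTA KO.

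Beside Arg1-high monocytes (608 and 670 cells with fewer than 10 Cxcl9 plus Nos2 UMIs and at least 10 Arg1 UMIs), 192 of 4355 genes (4.41%) were higher and 268 (6.15%) lower. Members held more Serpina3g, Calhm6, Cd40, Traf1, Gbp5, Fas and Ccl17. Gbp5 stood at 375 against 120 CPM in WT and 400 against 126 CPM in VISTA KO. All 8 measured chemokines for monocytes and neutrophils were lower in members, Ccl7 at 113 against 2102 CPM in WT and 182 against 1500 CPM in VISTA KO. Of 23 glycolysis and hypoxia genes, 11 were lower and 1, Acod1, was higher. Ero1l, a hypoxia gene of the endoplasmic reticulum, stood at 112 against 299 CPM in WT and 92.0 against 237 CPM in VISTA KO. Spp1, Pdpn, Mt2, Mmp12 and Pf4 were among the other genes lowest beside Arg1-high monocytes, apart from Arg1 itself, which the rule used.

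Members were not uniform in MHC class II RNA. Per 10000 UMIs of a cell, the MHC class II genes summed to a median of 38.2 in WT members, with quartiles of 8.96 and 170, and to 145 in VISTA KO members, with quartiles of 33.0 and 347. A split at 100 per 10000, chosen after these values were seen, put 71 of 198 WT members (35.9%, interval 29.2% to 43.0%) and 218 of 368 VISTA KO members (59.2%, interval 54.0% to 64.3%) in the high group. The remaining 127 and 150 cells made the low group.

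Some genes differed between the groups in the same direction in both libraries, and others did not. Chil3, Vcan and Plac8, genes of classical monocytes, were higher in the low group: Chil3 stood at 1222 against 311 CPM in WT and 893 against 328 CPM in VISTA KO. Ly6c2 stood at 4064 against 2252 CPM in WT and 4467 against 2873 CPM in VISTA KO. Some genes shared with dendritic cells were higher in the high group. Mgl2, a lectin, stood at 1.69 CPM in the low group and 243 CPM in the high group of WT, and at 1.55 and 131 CPM in VISTA KO, but its UMIs lay in 20 WT and 25 VISTA KO members, of which the 5 highest held 59.4% and 63.9%. Klrd1 stood at 3.37 and 408 CPM in WT and 1.55 and 76.1 CPM in VISTA KO. Itgax, which encodes CD11c, stood at 11.8 and 60.7 CPM in WT and 10.8 and 55.0 CPM in VISTA KO. Napsa, of the dendritic cell list, stood at 452 and 655 CPM in WT and went the other way in VISTA KO, at 426 and 380 CPM. Ccl5 fell from 1764 to 1152 CPM between the low and high groups of WT and rose from 2836 to 3731 CPM in VISTA KO. Apoe fell from 910 to 546 CPM in WT and rose from 1701 to 2888 CPM in VISTA KO. Ifi205 also went opposite ways, from 662 to 978 CPM in WT and from 327.5 to 204 CPM in VISTA KO. Gpr84 stood at 70.8 and 55.8 CPM in WT and at 61.8 and 77.9 CPM in VISTA KO. It had only 65 and 125 UMIs in all members, and no interval was made for these gaps. The dendritic cell genes Flt3 and Zbtb46 stayed at 12.1 CPM or below in each group.

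The CD11c tag followed Itgax RNA, while the Ly6C tag followed Ly6c2 RNA in its medians but not in its upper quartiles. CD11c medians were 6 tags in the low groups of both libraries and 18 and 14 in the high groups. Ly6C medians were 1084 and 998 tags in the low groups and 800 and 912.5 in the high groups. Upper quartiles of Ly6C went the other way, at 1730 and 1499 tags in the low groups and 1786 and 1668 in the high groups. Cxcl9 was present in all groups, at 4731 and 3227 CPM in the low and high groups of WT and 5335 and 4462 CPM in those of VISTA KO. Cxcl10 stood at 4004 and 2681 CPM in WT and 5268 and 2393 CPM in VISTA KO. Cxcl10 was thus lower in the high group of both libraries, while Cxcl9 chose the cells and its levels are a description.

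**Figure D3:**
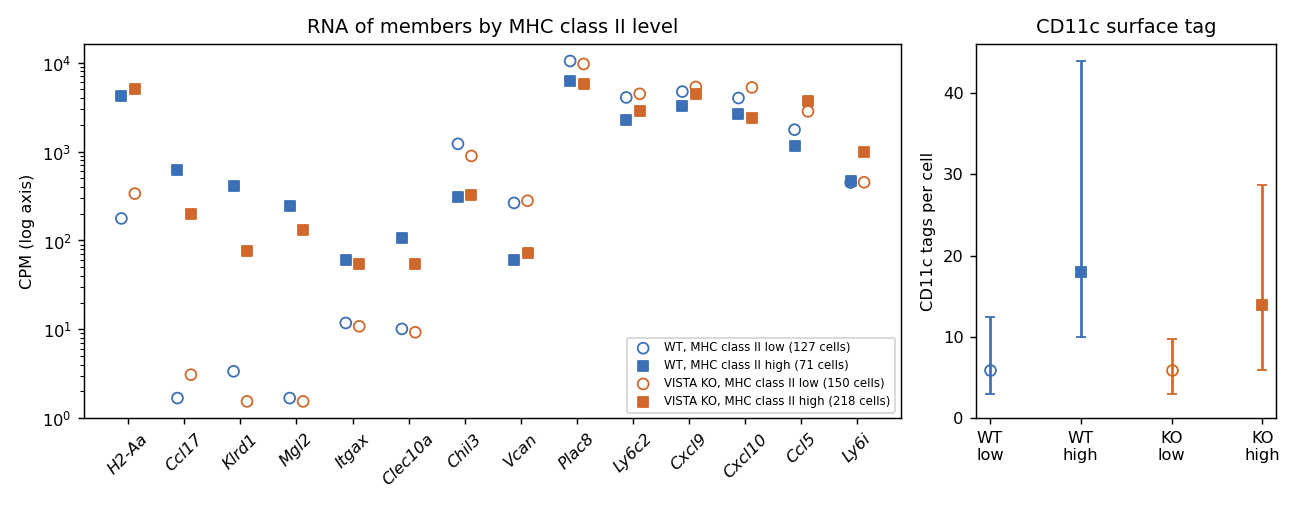
Left, summed levels in CPM (log axis) of 14 genes in members below (open circles) and at or above (filled squares) 100 MHC class II UMIs per 10000; right, median CD11c tags per cell with quartiles as bars. Mgl2, Klrd1 and Itgax RNA and the CD11c tag are higher in the high groups, whose tag medians are 18 and 14 against 6 and 6.

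Ccl17, a chemokine for CCR4-bearing T cells made mainly by dendritic cells, came from very few members. Its 254 WT UMIs lay in 9 cells, of which the 5 highest held 98.0%, and its 216 VISTA KO UMIs lay in 13 cells, of which the 5 highest held 88.4%. Its summed level was 253 CPM in WT and 124 CPM in VISTA KO (log2 ratio -1.02, interval -1.29 to -0.76), and the direction turned to 2.55 with a cut of at least 20 Cxcl9 plus Nos2 UMIs. Klrd1 was also concentrated, in 30 WT and 19 VISTA KO members. Ccl5, in contrast, had a UMI in 101 of 198 WT members and 282 of 368 VISTA KO members.

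Cxcl9 level and the other genes were loosely tied. In WT members with 10 to 14, 15 to 24 and 25 or more Cxcl9 UMIs (67, 67 and 56 cells), Ccl5 stood at 862, 1429 and 2327 CPM. In VISTA KO members (131, 110 and 121 cells) it stood at 3434, 2494 and 3966 CPM, without the steps seen in WT. Gbp2 stood at 1280, 1391 and 1636 CPM in WT and 1363, 1633 and 1598 CPM in VISTA KO. Ly6i stood at 460, 394 and 399 CPM in WT and at 716, 775 and 864 CPM in VISTA KO.

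Several MHC class II, Fc receptor, complement and macrophage genes were higher in VISTA KO members than in WT members, while a few interferon-inducible genes of chromosome 1 were higher or lower. Of 3239 genes with at least 100 UMIs, 186 were higher (5.74%) and 89 lower (2.75%) in VISTA KO members, by the same 1.5-fold count. Without members that had any C1q UMI the counts were 90 and 58, of 1529 genes with at least 100 UMIs. This left 123 WT and 95 VISTA KO cells. Cxcl9 stood at 4115 CPM in WT and 4787 CPM in VISTA KO, a log2 ratio of 0.22 (0.16 to 0.27) in a gene that chose the cells. Cxcl10 stood at 3462 and 3464 CPM, Gpr84 at 64.6 and 71.9 CPM and Nos2 at 105 and 96.6 CPM, with intervals that held equality for each. Ccl5 stood at 1513 and 3398 CPM, a log2 ratio of 1.17 with a lower bound of 1.09, and Ly6i at 457 and 797 CPM, a log2 ratio of 0.80 (0.65 to 0.96). In MHC class II low members Ly6i stood at 448 and 451 CPM, and in high members at 471 and 1002 CPM. In classical monocytes Ccl5 stood at 374 and 1266 CPM, in Arg1-high monocytes at 448 and 1505 CPM, and in NK-type cells, a class rich in it, at 11579 and 10086 CPM.

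**Figure D4:**
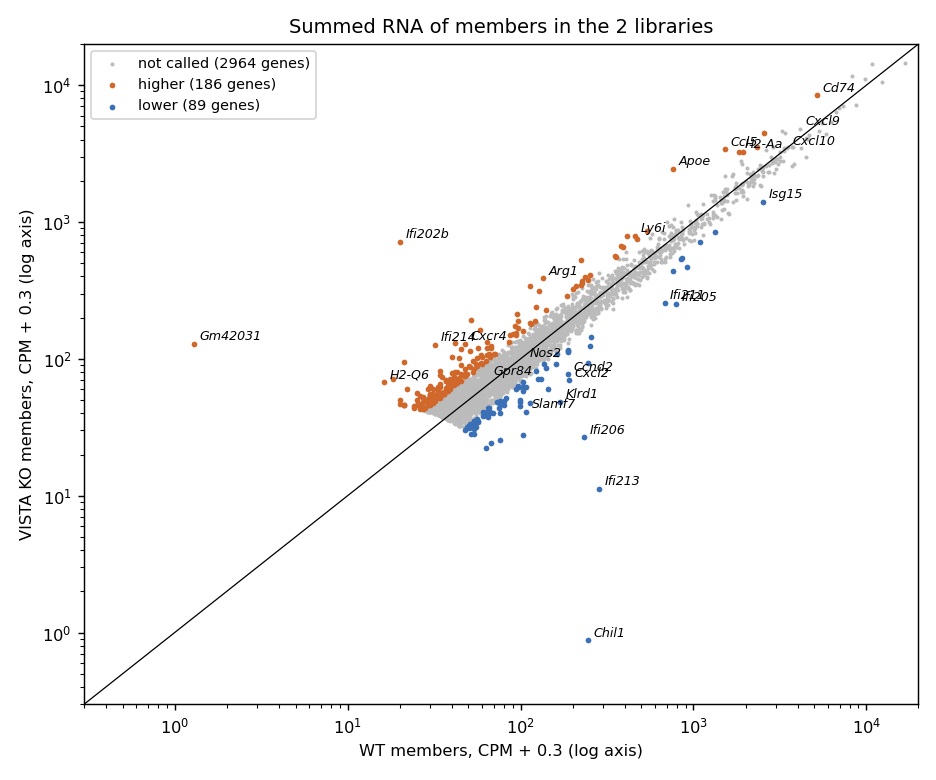
Summed level in WT members (x axis) and VISTA KO members (y axis), in CPM plus 0.3 on log axes, of each of the 3239 genes with at least 100 UMIs; colours mark the 186 higher and 89 lower genes and the line marks equality. Ifi202b, Chil1, Ifi213 and Ifi206 lie far from the line, and Cxcl9 and Cxcl10 lie close to it.

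Lists are counted by a smaller fold, a log2 ratio of at least 0.32 in size with an interval that left out equality, among genes with at least 20 UMIs. Over all 7194 such genes, 8.53% were higher and 5.44% lower in VISTA KO members, with a median log2 ratio of 0.04. Of 10 measured MHC class II genes, 5 were higher and 2 lower, with a median of 0.33. H2-Aa stood at 1835 CPM in WT and 3264 CPM in VISTA KO, a log2 ratio of 0.83 (0.76 to 0.91), and Cd74, the invariant chain, at 5165 and 8412 CPM. H2-DMb2 and H2-Oa, a part of the peptide-loading pathway and its modulator, were the 2 lower genes. Within the MHC class II high members alone the list median was -0.15, and within the low members 0.91. The share of high members, 35.9% and 59.2%, moved with the library.

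RNA outside these cells moved the same way. In NK-type cells, which do not make MHC class II in quantity, H2-Aa stood at 226 CPM in WT and 825 CPM in VISTA KO, and the whole MHC class II list summed to 1665 and 5046 CPM, against 12781 and 20824 CPM in members. In classical monocytes the list summed to 5406 and 11670 CPM. The part of this RNA in the difference between members was not tested. Among members with no C1q UMI, H2-Aa stood at 1760 and 3360 CPM and Cd74 at 4905 and 8844 CPM, and among those with 1 or 2 C1q UMIs H2-Aa stood at 1949 and 3229 CPM.

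Of 20 macrophage genes, 16 were higher and 1, Cd9, lower, with a median of 0.87. C1qa, C1qb and C1qc are among the 16 and belong to the rule, which left them free only between 0 and 2 UMIs, and 62.1% of WT but 25.8% of VISTA KO members had none. Apoe, a lipid carrier, stood at 761 and 2446 CPM, a log2 ratio of 1.68 (1.57 to 1.80). Its ratio was 1.55 in classical monocytes and 1.79 in NK-type cells, where it stood at 368 and 1271 CPM. The Apoe ratio was smaller in Arg1-high monocytes (0.88), macrophages with high Cxcl9 or Nos2 (0.46) and neutrophil-type cells (0.49). The macrophage list summed to 3119 and 5777 CPM in members, 3286 and 5782 CPM in classical monocytes and 2346 and 3903 CPM in NK-type cells. The change in the sum was thus of like size in these classes, and its part in the members was not tested. In MHC class II low members the list median was 0.0627. Trem2, Ms4a7, Csf1r and Spp1 were among the higher genes, and Spp1, osteopontin, turned to -0.16 in the MHC class II low members.

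Of 13 Fc receptor and complement genes, 7 were higher and 0 lower, with a median of 0.57. Fcgr2b, the inhibitory Fc receptor, stood at 225 and 527 CPM, a log2 ratio of 1.22 (1.02 to 1.45). Complement C3 stood at 409 and 609 CPM and Cfb, of the alternative pathway, at 537 and 866 CPM. Fcer1g, the chain that Fc receptors share, was not past the fold at 4612 and 4019 CPM. In classical monocytes Fcgr2b stood at 215 and 454 CPM, close to its member levels in both libraries.

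Of 28 NF-kappaB genes, 13 were higher and 0 lower, with a median of 0.34. Nfkbia, the inhibitor that NF-kappaB induces, stood at 389 and 533 CPM, and Ptgs2, cyclooxygenase 2, at 149 and 208 CPM. Tnfaip2, Malt1, Icam1 and Marcksl1 were among the others. Of 19 MHC class I and processing genes, 7 were higher and 0 lower, with a median of 0.15. B2m stood at 3255 and 4617 CPM, while the peptide pump Tap1 stood at 386 and 397 CPM and the proteasome gene Psmb9 at 772 and 751 CPM.

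Of 15 interferon-gamma GTPases, 5 were higher and 0 lower, with a median of 0.17. Irgm2 stood at 34.8 and 73.6 CPM and Igtp at 236 and 398 CPM, while Gbp2 stood at 1431 and 1526 CPM. Of 18 interferon signalling factors, 3 were higher, Stat2, Ciita and Socs3. Of 19 type I interferon-stimulated genes, 2 were higher and 1 lower, with a median of 0.05. The lower gene was Isg15, a ubiquitin-like protein, at 2517 and 1402 CPM, a log2 ratio of -0.84 (-0.93 to -0.76). Its ratio was -0.86 in classical monocytes, where it stood at 2224 and 1227 CPM.

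Of 8 chemokines for T cells, Cxcl16 and Ccl5 were higher and Ccl17 lower, with a median of 0.11. Of 9 chemokines for monocytes and neutrophils, 4 were higher and 1 lower, with a median of 0.27. Cxcl2, which calls neutrophils, was the lower gene at 190 and 69.6 CPM, and the 5 highest WT members held 77.5% of its UMIs. Of 11 nitric oxide and arginine genes, Arg1 and the arginine transporter Slc7a2 were higher and Gch1, which makes the cofactor of nitric oxide synthase, was lower. Slc7a2 stood at 14.9 and 36.8 CPM, Gch1 at 151 and 117 CPM, and Arg1, limited by the rule to fewer than 10 UMIs per cell, at 135 and 388 CPM.

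Of 17 checkpoint and costimulation genes, Cd274, Pdcd1lg2, Cd86 and Sirpa were higher and Vsir and Slamf7 lower. Cd274 stood at 154 and 202 CPM, a log2 ratio of 0.38 (0.11 to 0.67). Cd86, a ligand of CD28, stood at 156 and 197 CPM. Cd40, at 179 and 224 CPM, was not past this fold. Slamf7 stood at 107 and 40.8 CPM.

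Genes of classical monocytes were near balance, with 2 of 20 higher, 4 lower and a median of -0.01. Chil3, a chitinase-like protein, stood at 848 and 538 CPM, a log2 ratio of -0.66 (-0.79 to -0.52), and in MHC class II high members its ratio was 0.0718. Of 9 dendritic cell genes, 0 were higher and Ccl17, Kmo and Napsa lower, with a median of -0.42. Of 47 oxidative phosphorylation genes, 0 were higher and 7 lower, with a median of -0.21, and Ndufa4 stood at 486 and 346 CPM. Of 14 genes of RNA quality, 6 were higher and 0 lower. Among them, Malat1, a nuclear RNA, stood at 8215 CPM in WT and 11635 CPM in VISTA KO members, and at 7634 and 11166 CPM in classical monocytes. Mitochondrial RNA made up a median of 1.00% of UMIs in WT members and 1.13% in VISTA KO members. The part of these shifts in the other lists was not tested.

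**Figure D5:**
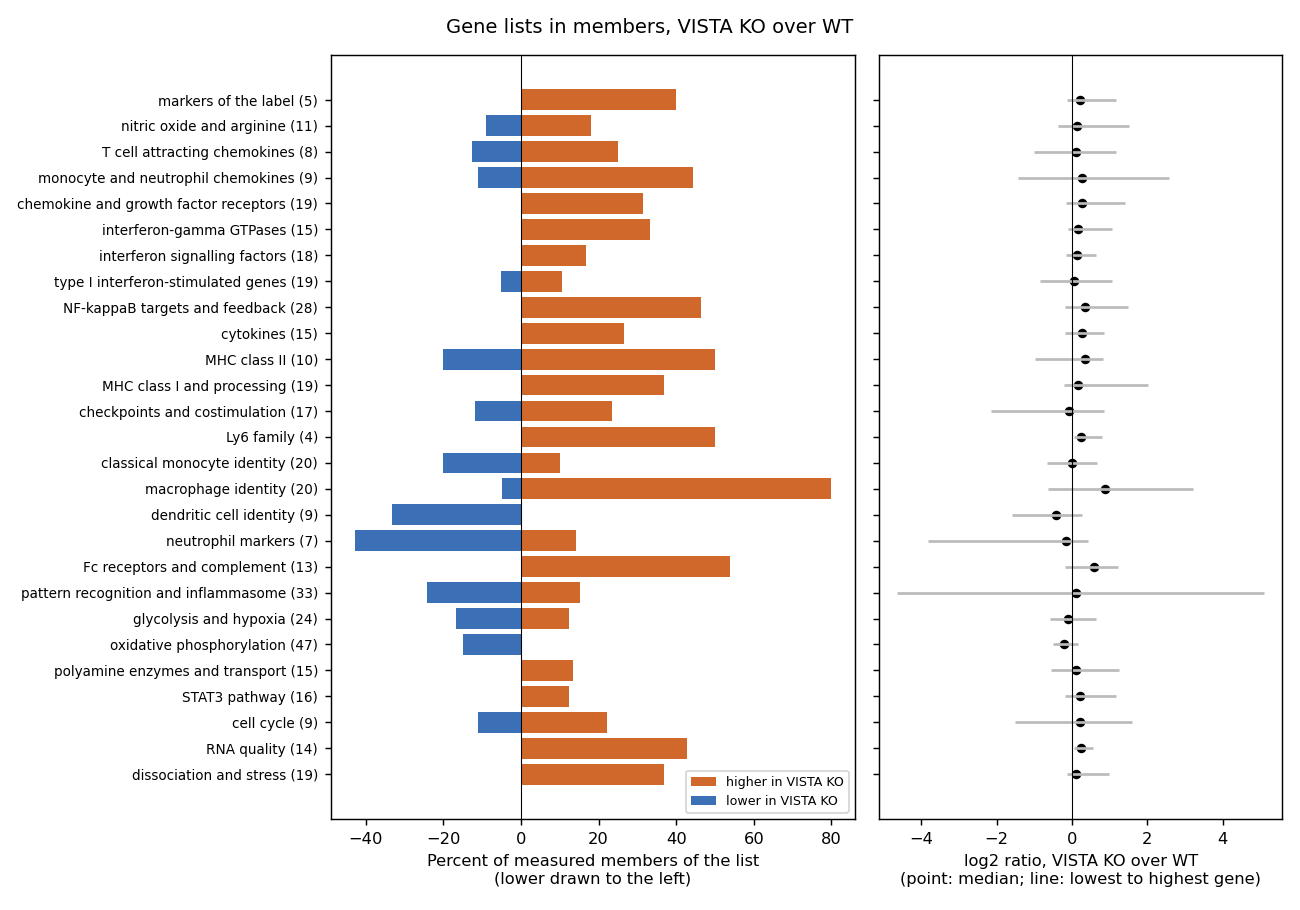
Left, percent of the measured genes of each list (number in brackets) that were higher (right of 0) or lower (left of 0) in VISTA KO members by the list count; right, the median log2 ratio of each list (point) and its lowest and highest gene (line). The macrophage list has 16 of 20 genes higher and a median of 0.87, and oxidative phosphorylation has 0 of 47 higher and a median of -0.21.

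Of the 24 genes named by rule, 6 lie close together: Ifi202b, Ifi214, Ifi213, Ifi206, Ifi205 and Ifi211 are on chromosome 1 (build GRCm38), from Ifi206 at chr1:173468485-173491318 to Ifi205 at chr1:174011998-174031755, and encode interferon-inducible p200 proteins, some of which sense DNA. Ifi202b stood at 19.9 CPM in WT and 717 CPM in VISTA KO, where 88.3% of members had a UMI, a log2 ratio of 5.10 (4.54 to 5.89). Ifi213 stood at 285 and 10.9 CPM, a log2 ratio of -4.64 (-5.46 to -4.04). Its neighbours Ifi206, Ifi205 and Ifi211 were lower and Ifi214 higher. Near-identical members of this family can share reads, so their separate levels are uncertain.

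Chil1, a chitinase-like gene at chr1:134182156-134190031, had 246 UMIs in WT and 1 in VISTA KO, a log2 ratio of -7.74 (-14.04 to -6.24). In classical monocytes it had 1580 and 1 UMIs. In the same cells Ifi202b had a log2 ratio of 6.70 and Ifi213 one of -5.34, and in NK-type cells 7.48 and -4.77. These ratios were therefore also present in cells outside the Cxcl9-high state. Gm42031, a gene model outside the naming rule and named after its value was seen, had 1 UMI in WT members against 223 in VISTA KO members, a log2 ratio of 6.02 (4.52 to 12.32).

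Of the remaining named genes, H2-Q6 and H2-Q7 are nonclassical MHC class I genes that differ little in sequence, so their separate levels are uncertain. They stood at 15.9 and 67.3 CPM and at 113 and 342 CPM. Cxcr4, the receptor for CXCL12, stood at 47.7 and 128 CPM, and Mmp14, a membrane-bound matrix metalloproteinase, at 57.7 and 161 CPM. AC149090.1 and D1Ertd622e were also higher. Klrd1, Pttg1, Hist3h2a, Slamf7 and Ccnd2 were among the lower genes. Tag medians differed little between the libraries, by 34.5 Ly6C tags, 0 CD11c tags and -1 Ly6G tag (VISTA KO minus WT).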

How the data were processed

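Viable CD11b+ cells of pooled MC38 tumors were profiled with 10x Genomics 3' v3.1 libraries and antibody tags, 1 library per genotype, per the labels' protocols. The deposited values are raw counts of UMIs per gene or tag and barcode, made with Cell Ranger 5.0.0, per the file headers, on mm10, per the submitters' processing notes, which also name Seurat 4.0. No source used here gives the counting strand, read filters or doublet removal; overlapping and near-identical genes can share counts.

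Barcodes were kept from 200 genes and 500 gene UMIs upwards, with mitochondrial UMIs up to 10%. No doublet caller was run; members above the 90th percentile of UMIs were left out as an alternative. UMIs were summed per library and class, scaled to CPM, and compared as log2 ratios with a pseudocount of 1 UMI. Intervals are 95%: exact Poisson for levels, exact conditional binomial for ratios, Clopper-Pearson for shares and Newcombe for their differences. They cover counting error only. Python 3.11.15, numpy 2.4.6, scipy 1.17.1, pandas 2.3.3 and matplotlib 3.10.9 were used, and the calculation was tested on simulated data.

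NK-type cells had at least 10 UMIs of Ncr1, Klrb1c, Gzma and Prf1 with at most 2 C1q UMIs and fewer than 10 of S100a8 and S100a9, and neutrophil-type cells at least 50 of S100a8 and S100a9 with at most 2 C1q UMIs. The members, gene lists and alternatives were chosen with earlier results of these data known. Genes named from the VISTA KO comparison are the 12 highest and 12 lowest ratios among genes with at least 100 UMIs found in at least 5% of members of either library, without mitochondrial, ribosomal protein, Xist, Y-linked, Gm and Rik genes; those from the class comparisons are the 15 highest and 10 lowest (classical monocytes) or 8 and 8, ranked by the smaller of the ratios of the libraries. Other list members named were chosen after their values were seen. Some genes that these rules name are not reported here.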

Additional observations from a re-analysis of the deposited data

Results flagged for a closer look

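The ratio of Ccl17 between the libraries went in opposite directions in 2 classes. In Cxcl9-high monocytes the log2 ratio of VISTA KO over WT was -1.02, and in macrophages with high Cxcl9 or Nos2 it was 2.98. The difference was not tested. Most of its UMIs lay in a few members, with 98.0% in the 5 highest WT cells and 88.4% in the 5 highest VISTA KO cells.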

How the results depend on the processing

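No paired analysis was possible because each genotype has 1 library. The VISTA KO minus WT share of members was 1.41 points with a cut of at least 20 Cxcl9 plus Nos2 UMIs per 10000, 1.92 with cells thinned to 2000 UMIs and -0.58 with no C1q UMI. Fewer or more genes were counted over in these settings. Genes higher in VISTA KO numbered 106 of 1831 with a cut of 20, 119 of 2118 thinned and 90 of 1529 without C1q. They numbered 417 of 7194 with a minimum of 20 UMIs and 90 of 1755 in MHC class II low members. Lower genes numbered 59 of 2118 thinned and 58 of 1529 without C1q. They numbered 209 of 7194 with the lower minimum and 50 of 1755 in low members. Genes below classical monocytes numbered 51 of 5007 thinned, 60 of 6305 without C1q and 161 of 6400 in MHC class II high members.

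With a cut of 20, list medians (log2) were 0.40 for T cell chemokines, 0.82 for MHC class II and 0.31 for the Ly6 family. With no C1q UMI the median of the 5 markers of the label was 0.0935. Without the limit on Arg1, monocyte and neutrophil chemokines had -0.0344 and neutrophil markers -1.23. In MHC class II low members, a split added after the data were seen, medians were 0.0087 for the markers of the label, 0.44 for T cell chemokines, 0.31 for type I interferon-stimulated genes, 0.91 for MHC class II, 0.13 for the Ly6 family, 0.0627 for macrophage genes and 0.24 for Fc receptors and complement. In high members they were -0.14 for T cell chemokines, -0.15 for MHC class II, 0.43 for the Ly6 family, 0.54 for classical monocyte genes, -0.99 for dendritic cell genes, 0.95 for Fc receptors and complement and 0.46 for stress genes.

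Ccl17 turned to 2.55 with a cut of 20, 1.40 per 10000 and 0.46 in low members, Chil3 to 0.0718 in high members and Spp1 to -0.16 in low members. The CD11c difference was 3 tags with no C1q UMI and -4 in high members, and that of Ly6G was 1 with no C1q UMI. Fewer cells enter most of these alternatives; the causes were not tested. The remaining values of lists, shares, counts and tags, 468 in all, stayed within 1.5 times or within their intervals, and centring on the median gene shifted ratios by 0.02. Of single-gene values, 1500 held, 256 moved and 5 turned; Apoe (1.68) ranged from 0.90 upwards, H2-Aa (0.83) was 0.24 in high members, Klrd1 (-1.80) was -0.28 with a cut of 20 and Cxcl2 (-1.44) was -0.34 with no C1q UMI. Low counts limit the precision of genes near the minimum of 20 UMIs, and spread between mice is not measured.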
